A study of Mus musculus with 10 samples.

Results

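The genes described here are 35 genes of the unfolded protein response and the integrated stress response, listed by name and found by symbol among the 56750 features of a bulk RNA-seq count table of mouse sarcomas. All 35 had a row in the table and a mean level of 1 CPM or more (counts scaled to a common library total), and no member was at 0 in any tumor. They were compared between 3 dFLEx CDS tumors (170019, 170024 and 170025) and 2 KP tumors (3800 and 3802).

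The dFLEx tumors came from mice heterozygous for the dFLEx CDS allele (dFLEx CDS +/-), an HA-tagged CIC::DUX4 fusion placed at Rosa26 under a CAG promoter and turned on only after both Cre and FLPE have acted. Tumors were induced in mice 6 to 12 weeks old by electroporation of the gastrocnemius muscle with plasmids that express FLPE and Cre from a CAG promoter. The KP tumors carried floxed p53 (p53fl/fl) beside a Cre-activated driver, and the age and the way of induction are not given for them in the sources used here. The groups therefore differ in driver, in p53 deletion and in the alleles they carry, and both were autochthonous tumors holding host cells beside tumor cells. No tumor was treated with a drug as far as the labels state. Each tumor's RNA was split into a pair of libraries, and the table held 9 libraries, with both libraries of every tumor except 3802, for which only the first was analysed here. The labels do not say that tumors of a group came from different litters or days, so p-values measure the spread between these tumors only.

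When proteins fail to fold in the endoplasmic reticulum (ER), the membrane sensors IRE1 (gene Ern1), PERK (gene Eif2ak3) and ATF6 are released from the chaperone BiP (gene Hspa5) and signal to the nucleus. IRE1 splices the mRNA of the transcription factor XBP1, ATF6 is cut into a transcription factor, and PERK phosphorylates the translation factor eIF2. Phosphorylated eIF2 lowers general protein synthesis but raises translation of ATF4, which drives genes for amino acid supply. Other eIF2 kinases respond to amino acid lack, heme lack and double-stranded RNA and reach ATF4 by the same route, and this shared route is called the integrated stress response. Secretory cells such as plasma cells and matrix-producing cells keep parts of the response active in normal tissue. The counts analysed here measure RNA only, so neither eIF2 phosphorylation, ATF6 cleavage nor ATF4 protein was read, and counts per gene do not separate the spliced form of Xbp1.

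The promoters of these genes carry known response elements, and they are shown because they are the letters through which the sensor branches are known to reach their targets. The windows searched ran from 250 bases before to 50 bases after the start site of each gene in the RefSeq promoter table (GRCm38.p6), which held 31 of the 35 members. The sequences were then placed in GRCm39 by exact match, and all coordinates below are GRCm39. The motifs were the ER stress response element ERSE (CCAAT and CCACG parted by 9 free bases), its shorter form ERSE-II (ATTGG and CCACG parted by 1 free base), the unfolded protein response element UPRE (TGACGTGG) and the composite element CARE (TGATGNAA, with N any base), which is read by ATF4 and its partners. Both strands were searched, and ERSE, ERSE-II and UPRE share the letters CCACG, UPRE on its other strand, so a base can belong to more than 1 of them. An ERSE was found in 9 of the 31 members and in 0.119% of the 32851 promoter windows. An ERSE-II was found in Dnajb11 and Herpud1 and in 0.0365% of all windows, and a CARE in Asns, Chac1, Herpud1, Slc7a11 and Trib3 and in 3.97% of all windows. No member held a UPRE, which stood in 0.676% of all windows, and 15 members held at least 1 of the 4 motifs, against 4.77% of all windows. A match is a description of letters and not a sign that a factor was bound. The ERSE sites of the 9 members, 10 sites in all because Hsp90b1 held 2, are printed as 30 bases on the strand that reads CCAAT first, with the fixed letters of the motif in capitals.
Hspa5 ERSE (chr2:34662032-34662061, plus strand, 47 to 65 bases before the start): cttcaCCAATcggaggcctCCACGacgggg
Hsp90b1 ERSE (chr10:86541496-86541525, minus strand, 194 to 212 bases before the start): caagcCCAATcgcaaggagCCACGcttcgg
Hsp90b1 ERSE (chr10:86541391-86541420, plus strand, 89 to 107 bases before the start): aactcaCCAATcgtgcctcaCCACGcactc
Calr ERSE (chr8:85573698-85573727, plus strand, 144 to 162 bases before the start): tatgggCCAATgagggtcgaCCACGcgttg
Canx ERSE (chr11:50216621-50216650, minus strand, 127 to 145 bases before the start): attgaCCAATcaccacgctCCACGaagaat
Pdia6 ERSE (chr12:17316487-17316516, plus strand, 80 to 98 bases before the start): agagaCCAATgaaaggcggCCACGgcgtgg
Creld2 ERSE (chr15:88703718-88703747, minus strand, 108 to 126 bases before the start): tgtggaCCAATtgaggctcgCCACGagaag
Dnajc3 ERSE (chr14:119175234-119175263, plus strand, 87 to 105 bases before the start): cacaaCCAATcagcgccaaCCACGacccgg
Syvn1 ERSE (chr19:6096557-6096586, plus strand, 26 to 44 bases before the start): cgcaaCCAATcggcggtagCCACGggaaca
Derl3 ERSE (chr10:75729071-75729100, minus strand, 138 to 156 bases before the start): ggctagCCAATggggaagtcCCACGgtaga

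The CARE of Asns and the 250 bases before the start of 4 members that the results below return to are given in the same way, on the strand of the gene except where stated. In Dnajc3 the capitals are an ERSE. In Herpud1 they are a CARE on the opposite strand followed by an ERSE-II. In Chac1 they are a CARE on the opposite strand. In Slc7a11 they are a pair of CAREs facing each other.
Asns CARE (chr6:7693214-7693243, minus strand, 16 to 23 bases before the start): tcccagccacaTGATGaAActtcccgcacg
Dnajc3 (chr14:119175094-119175343, plus strand): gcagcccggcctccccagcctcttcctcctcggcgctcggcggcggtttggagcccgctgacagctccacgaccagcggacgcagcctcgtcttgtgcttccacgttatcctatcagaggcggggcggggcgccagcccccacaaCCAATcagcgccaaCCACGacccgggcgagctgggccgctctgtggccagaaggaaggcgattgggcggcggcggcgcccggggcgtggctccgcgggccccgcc
Herpud1 (chr8:95112807-95113056, plus strand): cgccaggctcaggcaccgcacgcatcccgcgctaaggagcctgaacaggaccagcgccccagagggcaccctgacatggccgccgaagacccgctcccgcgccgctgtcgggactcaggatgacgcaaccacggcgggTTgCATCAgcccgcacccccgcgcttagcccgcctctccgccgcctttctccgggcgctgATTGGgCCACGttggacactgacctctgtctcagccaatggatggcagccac
Chac1 (chr2:119181473-119181722, plus strand): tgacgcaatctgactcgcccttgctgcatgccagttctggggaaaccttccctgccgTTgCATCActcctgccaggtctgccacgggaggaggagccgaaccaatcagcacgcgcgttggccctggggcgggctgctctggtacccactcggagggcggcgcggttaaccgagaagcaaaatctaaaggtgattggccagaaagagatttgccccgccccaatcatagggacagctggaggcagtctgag
Slc7a11 (chr3:50398063-50398312, minus strand): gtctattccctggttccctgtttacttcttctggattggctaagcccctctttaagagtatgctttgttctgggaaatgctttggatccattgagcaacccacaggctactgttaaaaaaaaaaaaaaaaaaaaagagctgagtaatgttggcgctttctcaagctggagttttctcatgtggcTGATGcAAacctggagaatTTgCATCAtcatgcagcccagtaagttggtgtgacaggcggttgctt

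Before the members were compared, the libraries were checked against their labels. CIC_DUX4, the fusion feature of the table, had 4238, 11623 and 33600 counts in dFLEx 170019, 170024 and 170025, 0 in KP 3800 and 6 in KP 3802, and HA-tag counts were 128, 325 and 1388 in the dFLEx tumors and 0 in both KP tumors. Library totals ran from 20503474 to 46302223 counts. KP 3802 stood apart, with the lowest total, the most features with a count (36904 against 24280 to 31768 in the other 8 libraries) and 0.0774% of its counts in olfactory and vomeronasal receptor genes against 0.00144% to 0.0141% in the others. Between the libraries of a tumor, the 35 members differed by a median of 0.04 to 0.13 on the log2 scale, and the widest gap was that of Derl3 in 170019, with 14 and 8 counts. Lymphocyte markers and the sum of the macrophage markers were highest in KP 3802. Most of that macrophage sum was C1qa (3094 of 4556 CPM). Adgre1 and Csf1r were highest in KP 3800 and Mrc1 in dFLEx 170025. Cd68 was highest in dFLEx 170025 and lowest in KP 3802. Chondrocyte markers were far higher in the dFLEx tumors (summed level 733 to 2466 CPM against 18.9 and 49.1 CPM). Because the samples are whole tumors, fewer cells of a type and less RNA per cell cannot be told apart in any value below.

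To ask whether the dFLEx and KP tumors differ in these pathways, each member was tested with edgeR's quasi-likelihood test on counts summed by tumor, in a fit over 24743 genes with Benjamini-Hochberg adjustment. Levels are CPM scaled by TMM, and log2 fold changes are dFLEx against KP. No member passed an adjusted p of 0.05, a threshold passed by 45 genes (0.182%) of the table. At an unadjusted p under 0.05, 1 member was counted, Slc7a11, against 10.6% of all tested genes. DESeq2 on the same sums called 1 member, Slc7a11, where it called 6.07% of 22867 genes. In 14 members all dFLEx tumors were above either KP tumor, and 13.7% of all tested genes did so. In 3 members, Asns, Slc7a11 and Phgdh, all dFLEx tumors were below either KP tumor, and 11.7% of all tested genes did so. The log2 fold change was above 0 in 23 members, against 43.7% of all genes. The median over the 35 members was 0.31, beside -0.18 over all tested genes.

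The count of 14 depended on how libraries were scaled. On library totals, where the median of all genes was -0.46, it was 6 (P4hb, Dnajb9, Sdf2l1, Manf, Herpud1 and Slc3a2), against 10.0% of all genes, while the 3 lower members stayed the same 3, against 15.5% of all genes. On that scale 21 members had a log2 fold change above 0, against 33.4% of all genes, and the members' median was 0.08. Leaving out KP 3800 gave 22 members above (31.8% of all genes), 4 below (41.9% of all genes) and a median of 0.94. Leaving out KP 3802 gave 19 above (31.9% of all genes) and 8 below (29.1%), and leaving out dFLEx 170025 gave 13 above (20.0% of all genes) and 5 below (17.6%). With a single KP tumor left, groups that do not overlap are more common over all genes as well.

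**Figure D1:**
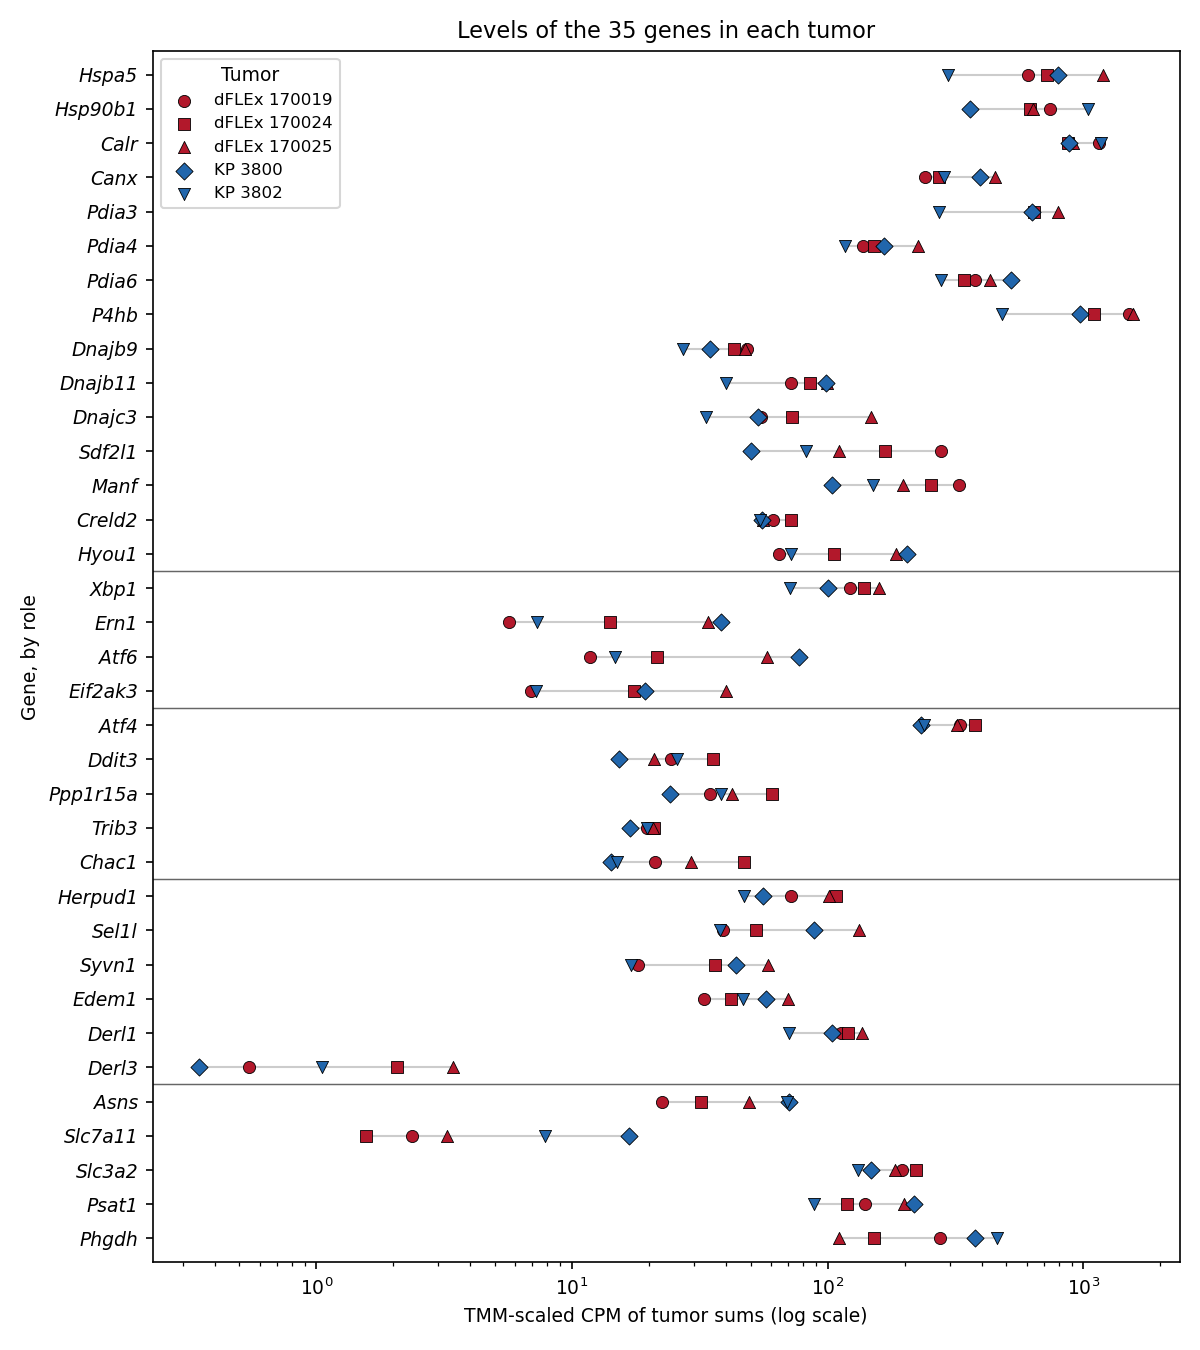
Level of each of the 35 genes in each tumor, as TMM-scaled CPM of summed counts on a log axis, with dFLEx tumors in red, KP tumors in blue, 1 point a tumor and grey lines joining the lowest and the highest. Horizontal lines part the role groups. The 3 dFLEx points lie left of both KP points for Asns, Slc7a11 and Phgdh, and right of both for 14 genes, of which Creld2 and Trib3 almost touch.

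The 15 ER chaperones and folding enzymes ranged widely in level. Their lowest group means were 16.4 CPM per kb of exon in the dFLEx tumors (Hyou1) and 8.43 CPM per kb in the KP tumors (Dnajc3). Per kilobase of exon, P4hb, the protein disulfide isomerase that also serves as a subunit of collagen prolyl hydroxylase, averaged 486 CPM per kb over the dFLEx tumors and 253 CPM per kb over the KP tumors, and Calr, a lectin chaperone, 340 and 357 CPM per kb. These were the highest members in both groups, P4hb first in dFLEx and Calr first in KP. Pdia3, the disulfide isomerase that works with the lectin chaperones, averaged 220.5 and 144 CPM per kb, Hspa5 198 and 129, and Hsp90b1, the ER member of the HSP90 family, 165 and 175. The median log2 fold change of the 15 was 0.31, 10 of them were above 0, and none passed the adjusted threshold or an unadjusted p of 0.05.

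Sdf2l1, a partner of Hspa5 and its J-domain cochaperones, had the widest difference among the chaperones. Its levels were 277, 168 and 111 CPM in dFLEx 170019, 170024 and 170025, and 50.4 and 82.3 CPM in KP 3800 and 3802. The lowest dFLEx tumor was thus 35.03% above the highest KP tumor, and the means were 185 ± 84.3 CPM (SD, n = 3) and 66.3 ± 22.6 CPM (SD, n = 2). The log2 fold change was 1.48 (SE 0.64) with an edgeR adjusted p of 0.474. Sdf2l1 is also the shortest member, with 1.11 kb of exon on chromosome 16 (16948002 to 16950247), and the median deviation of all genes up to 1500 bases long was highest in 170019 (0.77 log2) and lowest in 170025 (-0.67) and 3800 (-0.66), the same order in which Sdf2l1 stood within each group. With the trend of each tumor with length and GC content removed, its log2 fold change was 0.86.

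Manf, a secreted protein that binds Hspa5, ran in the same order. It was at 327, 253 and 197 CPM in the dFLEx tumors and at 104 and 151 CPM in the KP tumors, which gave a log2 difference of 1.02 (SE 0.56) with an edgeR adjusted p of 0.641. Dnajc3, a J-domain cochaperone whose promoter holds the ERSE printed above, was at 54.9, 72.5 and 147 CPM in the dFLEx tumors and at 53.2 and 33.5 CPM in the KP tumors. Its groups were parted by only 3.17% of the higher KP value, and the log2 fold change was 1.08 (SE 0.66). P4hb was at 1502, 1105 and 1565 CPM in the dFLEx tumors and at 969.9 and 479.5 CPM in the KP tumors, for a log2 fold change of 0.94 (SE 0.57) with an edgeR adjusted p of 0.708. Every dFLEx tumor was at least 13.9% above the higher KP tumor for P4hb. The fibroblast markers, whose collagens are clients of P4hb, summed to 3014 to 9801 CPM in the dFLEx tumors and to 2783 and 1422 CPM in the KP tumors. Of these markers 3 of 6 were wholly above and none below, beside 13.7% and 11.7% of all tested genes, and their part in the P4hb values was not tested.

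The other chaperones whose groups did not overlap differed by less. Dnajb9, a J-domain cochaperone and classic XBP1 target, was at 48.5, 42.9 and 47.4 CPM against 34.7 and 27.1 CPM, with a log2 fold change of 0.58 (SE 0.54). Its dFLEx tumors were close to one another, within an SD of 2.95 CPM. Pdia3 was at 636, 644 and 796 CPM against 631 and 273 CPM, which gave a log2 difference of 0.61 (SE 0.58), and KP 3800 was within 0.713% of the lowest dFLEx tumor. Creld2, an ER protein with disulfide isomerase activity, was at 60.97, 71.7 and 55.6 CPM against 55.6 and 54.1 CPM, so that the groups were parted by 0.0557% and the log2 fold change of 0.19 (SE 0.53) became -0.10 on library totals. Like the other chaperones whose groups did not overlap, Creld2 and Pdia3 cannot be called different between the groups beyond the spread between tumors.

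Hspa5, the master chaperone, overlapped between groups. It ran from 297 CPM in KP 3802 to 1193 CPM in dFLEx 170025, with a log2 fold change of 0.62 (SE 0.64) and an edgeR adjusted p of 0.879. The log2 fold changes of the lectin chaperones Calr and Canx were -0.07 and -0.08, and those of Hsp90b1 and of Hyou1, which exchanges nucleotide on Hspa5, were -0.08 and -0.21. The disulfide isomerases Pdia4 and Pdia6 were at 0.28 and -0.05, and the cochaperone Dnajb11 at 0.31. Hsp90b1 showed how far apart the KP tumors were, with 362 CPM in 3800 and 1047 CPM in 3802, the lowest and the highest of the 5 tumors. Of the exonic bases of Hsp90b1, 15.7% are shared with other features, and reads over shared bases were not counted. Of the 9 members with an ERSE, Creld2 and Dnajc3 were wholly above and none was wholly below, beside 13.7% and 11.7% of all tested genes. The log2 fold changes of the 9 ran from -0.08 (Hsp90b1 and Canx) to 1.54 (Derl3) with a median of 0.19.

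**Figure D2:**
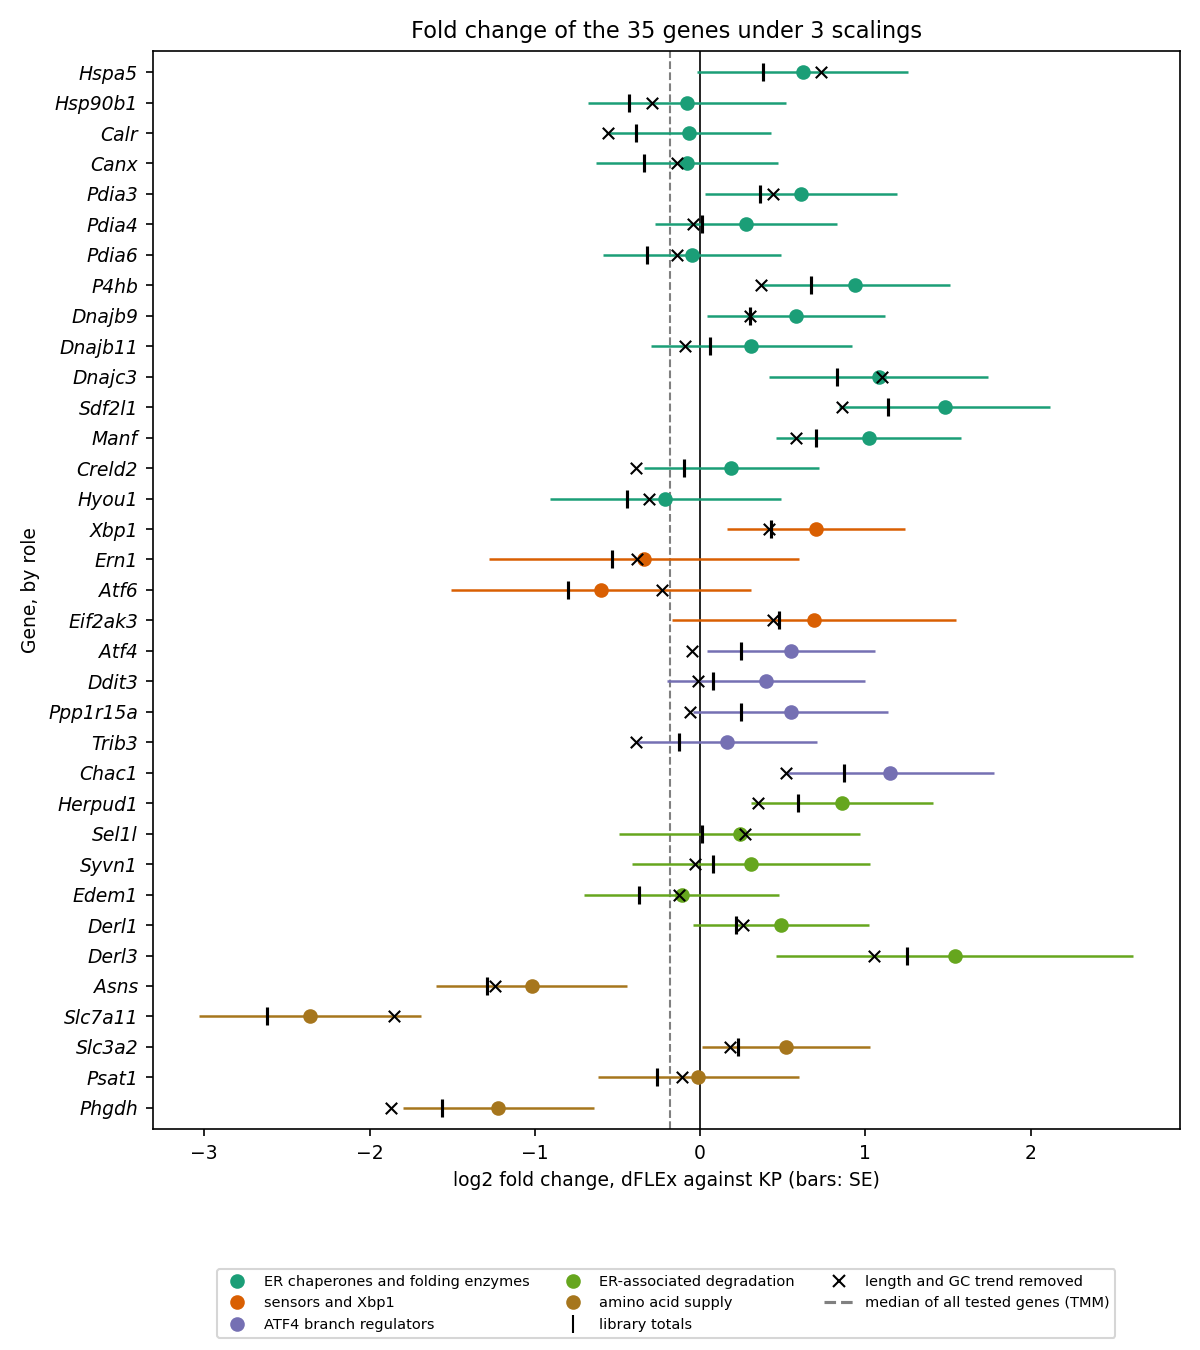
Log2 fold change of each gene, dFLEx against KP, with points and SE bars from edgeR on TMM-scaled tumor sums, ticks for library totals and crosses after each tumor's trend with length and GC content was removed. The dashed line is the median of all tested genes (-0.18), and Slc7a11, at -2.36, -2.62 and -1.85, is the gene farthest from 0 on the TMM and library-total scales.

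Among the sensors and Xbp1, only Xbp1 had groups that did not overlap. Xbp1, the transcription factor of the IRE1 branch, was at 122, 138.5 and 159.5 CPM in the dFLEx tumors and at 100.3 and 71.5 CPM in the KP tumors. The lowest dFLEx tumor was 21.5% above the highest KP tumor, and the log2 fold change was 0.70 (SE 0.54) with an edgeR adjusted p of 0.812. On library totals the log2 fold change of Xbp1 was 0.43 and its groups overlapped. Plasma cell markers, a lineage in which XBP1 is very active, summed to 123 to 215 CPM in the dFLEx tumors and to 261 and 104.7 CPM in the KP tumors, with 2 of 7 markers wholly above (Prdm1 and Irf4) and 1 wholly below (Pou2af1), beside 13.7% and 11.7% of all tested genes. Most of that sum was Sdc1. Of the defining markers, Mzb1 and Tnfrsf17 stayed under 0.5 CPM in all 5 tumors, and Jchain was at 37.1 CPM in KP 3802 and at 0.491 to 1.49 CPM in the other 4. The part of plasma cells in the Xbp1 values was not tested.

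The sensor genes themselves were low and varied widely between tumors of the same group. Ern1 ran from 5.66 CPM in dFLEx 170019 to 38.1 CPM in KP 3800, Atf6 from 11.7 CPM in dFLEx 170019 to 77.4 CPM in KP 3800, and Eif2ak3 from 6.93 CPM in dFLEx 170019 to 39.9 CPM in dFLEx 170025. Their log2 fold changes were -0.34 (SE 0.94), -0.60 (SE 0.91) and 0.69 (SE 0.86), each smaller than its SE. Without KP 3800 the log2 fold changes of Ern1 and Atf6 were 1.47 and 1.22. These 3 genes have 8.17, 9.23 and 6.03 kb of exon, and the tumors in which they were high are those in which long genes were high. Over the 4668 genes above 6000 bases at a mean level of 1 CPM or more, the median deviation from the 5-tumor mean was 0.64 in dFLEx 170025 and 0.63 in KP 3800, and -0.59, -0.16 and -0.54 in 170019, 170024 and 3802. The 7 members of that length class (Hyou1, Ern1, Atf6, Eif2ak3, Sel1l, Edem1 and Slc7a11) had medians of 1.04 in 170025, 0.84 in 3800, -0.81 in 170019, -0.20 in 170024 and -0.70 in 3802.

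**Figure D3:**
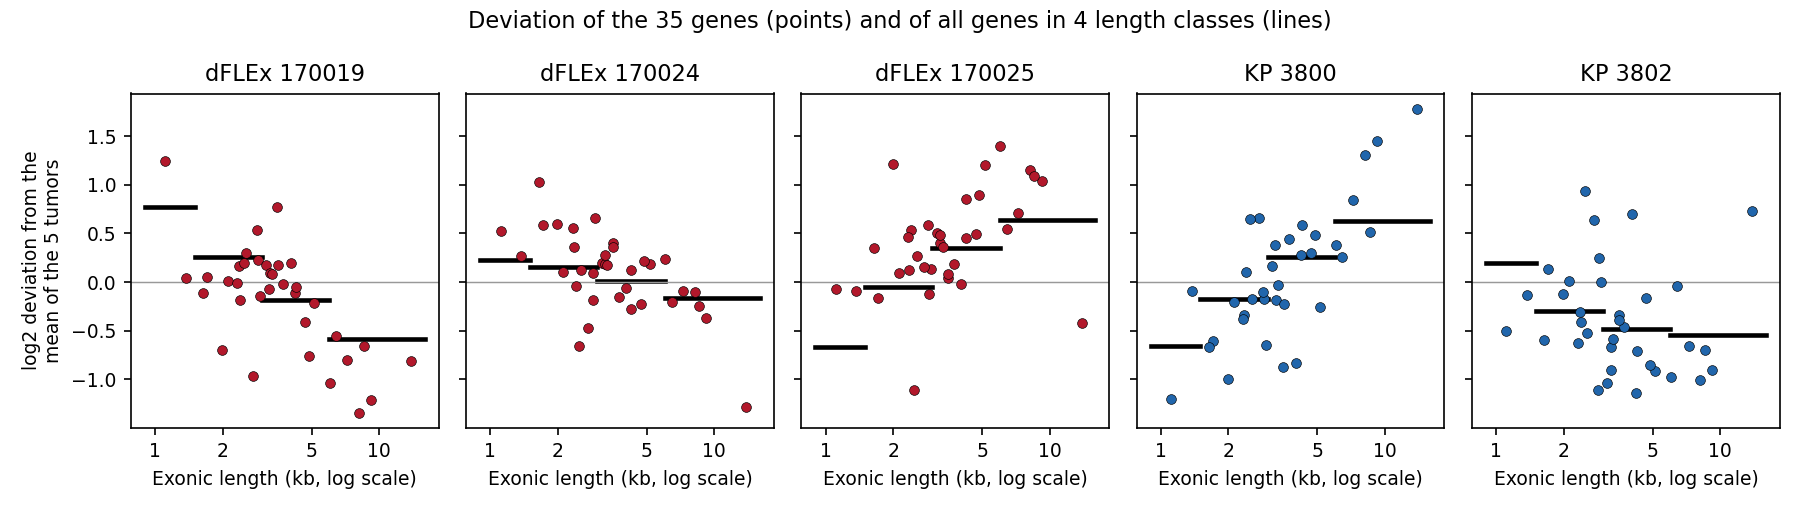
Deviation of each of the 35 genes from its mean over the 5 tumors, in log2(CPM + 0.5), against exonic length in kb on a log axis, 1 panel a tumor, with black lines for the median of all genes of at least 1 CPM in 4 length classes (up to 1500, 3000 and 6000 bases and above). Long genes lie below 0 in 170019 and 3802 and above 0 in 170025 and 3800, and the longest point, Slc7a11 at 13.9 kb, goes against its class in 170025 and in 3802.

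Removing this trend in each tumor, an alternative chosen after the data were seen, changed the picture of the set. The median log2 fold change of the 35 members became -0.04, beside -0.37 over all genes, and 8 members were wholly above, against 12.6% of all genes. Those were Hspa5, Pdia3, Dnajb9, Dnajc3, Sdf2l1, Xbp1, Sel1l and Derl1. The wholly lower members were the same 3 with Trib3 added, against 16.7% of all genes, and again none passed the adjusted threshold in edgeR.

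The 5 regulators of the ATF4 branch all had log2 fold changes above 0 on TMM scaling, with a median of 0.55, and none passed the test. Atf4 was at 330, 376 and 320.5 CPM in the dFLEx tumors and at 232 and 237 CPM in the KP tumors. The KP tumors were close to each other and the lowest dFLEx tumor was 34.98% above the higher of them, with a log2 fold change of 0.55 (SE 0.51) and an edgeR adjusted p of 0.864. Chac1, an enzyme that degrades glutathione and a sensitive target of ATF4, was at 21.1, 47.2 and 29.3 CPM in the dFLEx tumors and at 14.3 and 15.01 CPM in the KP tumors. Its log2 fold change of 1.15 (SE 0.63) had an edgeR adjusted p of 0.637. Trib3, a pseudokinase that dampens the branch, was at 19.6, 20.9 and 20.8 CPM against 16.8 and 19.6 CPM, and its groups were parted by 0.00723%, which is no difference at this spread.

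The direction of part of this branch depended on the scaling. On library totals the groups of Atf4, Chac1 and Trib3 all overlapped, and the log2 fold changes were 0.25, 0.87 and -0.13. With the length and GC trend removed they were -0.05, 0.52 and -0.39. The median over all tested genes was -0.18 on TMM scaling, -0.46 on library totals and -0.37 with the trend removed. Ddit3, which encodes the pro-apoptotic factor CHOP, had a log2 fold change of 0.40 (SE 0.60), and Ppp1r15a, which encodes the phosphatase subunit GADD34 that reverses eIF2 phosphorylation, 0.55 (SE 0.59). Both overlapped between groups, were highest in dFLEx 170024 and lowest in KP 3800, and were at -0.01 and -0.06 after the trend was removed. Of the exonic bases of Ddit3, 10.9% are shared with other features (Mars1, Gm4189 and a second, short Ddit3 entry that had no counts), and reads over shared bases were not counted.

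In ER-associated degradation, the disposal route for misfolded proteins, Herpud1 and Derl1 had groups that did not overlap. Herpud1, a scaffold of the ubiquitin ligase complex whose promoter holds both an ERSE-II and a CARE, was at 72.2, 107.6 and 100.8 CPM in the dFLEx tumors and at 55.8 and 46.9 CPM in the KP tumors. Each dFLEx tumor was at least 29.4% above the higher KP tumor on TMM scaling, and the groups still did not overlap on library totals. With the length and GC trend removed the groups of Herpud1 overlapped, and its log2 fold change was 0.35. It had a log2 fold change of 0.86 (SE 0.55) and an edgeR adjusted p of 0.736. Derl1, a channel component, was at 112, 120 and 136.5 CPM against 104 and 70.5 CPM, for a log2 fold change of 0.49 (SE 0.53), and shares 497 bases at 95.6% identity with the pseudogene-like copy Gm35638. Derl3, its relative found in secretory cells, had the largest log2 fold change of the 6 at 1.54 (SE 1.08), with 0.547, 2.06 and 3.43 CPM against 0.349 and 1.05 CPM. The groups of Derl3 overlapped, and it had only 22 to 273 counts a tumor. Syvn1, the ubiquitin ligase HRD1, its adaptor Sel1l and the mannose-trimming protein Edem1 had log2 fold changes of 0.31, 0.24 and -0.11, all under their SE. Syvn1 shares 11.1% of its exonic bases with other features, where reads were not counted.

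Amino acid supply was the one role group with members wholly below and a member wholly above on TMM scaling. Slc7a11, the cystine transporter subunit known as xCT and the longest member (chromosome 3, 49846975 to 50398063), was at 2.36, 1.56 and 3.25 CPM in dFLEx 170019, 170024 and 170025, and at 16.8 and 7.83 CPM in KP 3800 and 3802. The groups were wide apart, the lower KP tumor being 141.3% above the highest dFLEx tumor, and the means were 2.39 ± 0.844 CPM (SD, n = 3) and 12.3 ± 6.32 CPM (SD, n = 2). The log2 fold change was -2.36 (SE 0.67), which is 5.15-fold lower in dFLEx tumors, with an edgeR adjusted p of 0.226 and a DESeq2 adjusted p of 0.0326. Counts were low, at 95, 90 and 258 in the dFLEx tumors and 1250 and 193 in KP 3800 and 3802. Of all members, Slc7a11 had the widest gap between libraries in 170024 (55 and 35 counts) and in 170025 (164 and 94 counts). Over all settings tried, the log2 fold change stayed between -2.79 and -1.54, and the adjusted p lay between 0.00113 and 0.796. The lower bound of that range of p came from counting libraries as independent samples, which does not test tumors. Short stretches of Slc7a11 exon, up to 375 of its 13922 bases, have near-identical copies elsewhere, and reads aligning to several places were not counted.

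Phgdh, which makes the first step of serine synthesis, was at 274, 152 and 111 CPM in the dFLEx tumors and at 377 and 458 CPM in the KP tumors. The lower KP tumor was 37.5% above the highest dFLEx tumor, and the log2 fold change was -1.22 (SE 0.58) with an edgeR adjusted p of 0.543. Near-identical stretches of Phgdh lie in 10 other genes. The longest, in Gm9347, is 97.2% identical over 1318 bases, where Phgdh has 2486 exonic bases. Phgdh counts leave out reads that fit a copy as well. Asns, asparagine synthetase, was at 22.4, 31.9 and 49.4 CPM in the dFLEx tumors and at 70.4 and 69.3 CPM in the KP tumors, with a log2 fold change of -1.02 (SE 0.58) with an edgeR adjusted p of 0.664. Asns, Slc7a11 and Phgdh stayed wholly below on library totals, with DESeq2 size factors, with the background subtracted and with the length and GC trend removed, and with upper-quartile scaling 2 of them, Asns and Slc7a11, did. Macrophage markers moved the same way, with 6 of 8 wholly below (11.7% of all tested genes) and summed levels of 671 to 864 CPM in the dFLEx tumors and 1514 and 4556 CPM in the KP tumors, and the part of macrophages in these values was not tested.

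Slc3a2, the heavy chain that pairs with Slc7a11 and other amino acid transporters, lay on the other side. It was at 195, 222 and 183 CPM in the dFLEx tumors and at 148 and 132 CPM in the KP tumors, also wholly above on library totals, with a log2 fold change of 0.52 (SE 0.51) and an edgeR adjusted p of 0.875. With the length and GC trend removed the groups of Slc3a2 overlapped, and its log2 fold change was 0.18. Psat1, the next enzyme of serine synthesis after Phgdh, had a log2 fold change of -0.01 (SE 0.61) and ran from 88.6 CPM in KP 3802 to 218 CPM in KP 3800. The 5 members that hold a CARE thus did not share a direction. Asns and Slc7a11 were wholly below, Chac1, Herpud1 and Trib3 wholly above on TMM scaling (Chac1 and Trib3 not on library totals), and their log2 fold changes ran from -2.36 to 1.15. Of all tested genes, 11.7% were wholly below and 13.7% wholly above on TMM scaling. With the length and GC trend removed, neither Chac1, Herpud1 nor Trib3 was wholly above.

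**Figure D4:**
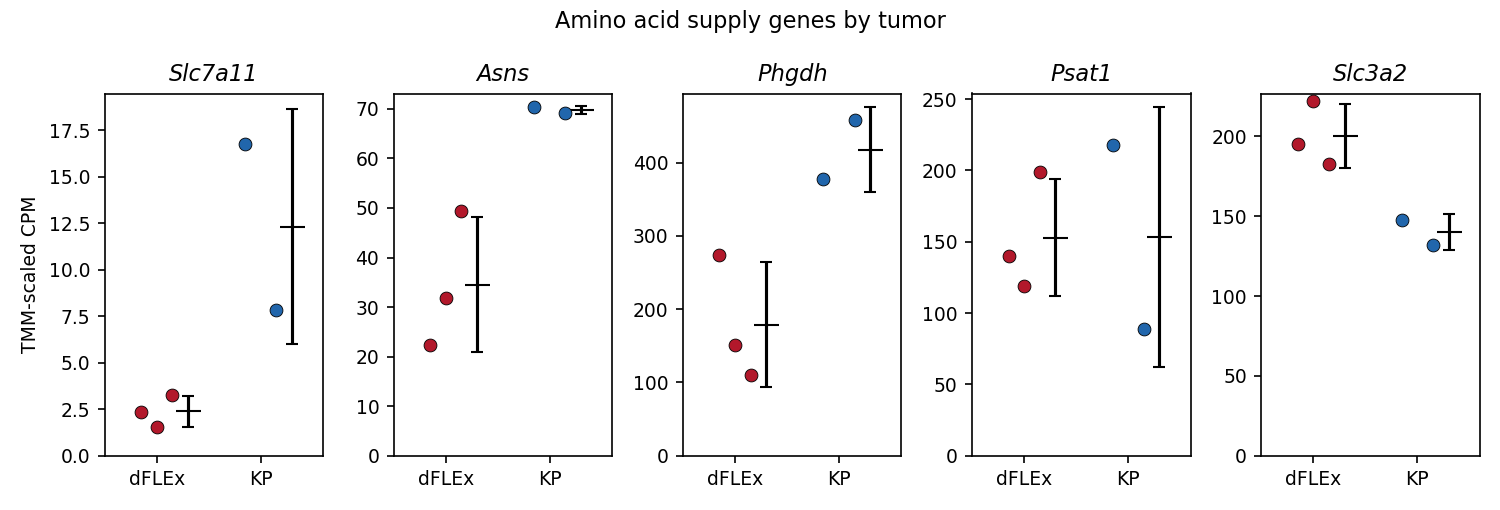
TMM-scaled CPM of the 5 amino acid supply genes, 1 point a tumor (red for 3 dFLEx, blue for 2 KP), with the group mean and SD beside the points and each axis starting at 0. Slc7a11, Asns and Phgdh are lower in all 3 dFLEx tumors, Slc3a2 is higher, and Psat1 overlaps.

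The rest of the pathway was read from 7 further lists of 123 genes. None of the 123 passed an adjusted p of 0.05 in edgeR, 15 had an unadjusted p under 0.05 (10.6% of all genes did), and DESeq2 called 5 (Vldlr, Stc2, Slc7a3, Cbs and Fkbp14), where it called 6.07% of all genes. The dFLEx tumors were wholly above the KP tumors for 23 of them (13.7% of all genes) and wholly below for 7 (11.7% of all genes), and their median log2 fold change was 0.17, -0.10 on library totals. The 26 further ATF4 targets had a median of 0.26, with 9 wholly above and 1 wholly below. Stc2, a secreted glycoprotein induced by ER stress, was at 99.9, 73.1 and 188 CPM in the dFLEx tumors and at 13.6 and 5.11 CPM in the KP tumors, which gave a log2 difference of 3.68 (SE 0.81) with an edgeR adjusted p of 0.131 and a DESeq2 adjusted p of 0.000107. Slc7a3, a cationic amino acid transporter, was the 1 gene of this list wholly below, with a log2 fold change of -3.13 (SE 0.69) and a DESeq2 adjusted p of 0.00226. The other amino acid transporters of the list did not share a direction. Slc1a4 and Slc1a5 were wholly above at 1.44 (SE 0.69) and 0.99 (SE 0.58). Slc7a1, Slc7a5 and Slc6a9 overlapped between groups at -0.55 (SE 0.94), -0.36 (SE 0.81) and 0.09 (SE 1.35). None of the 12 aminoacyl-tRNA synthetases was wholly above or below, and their median was 0.02. Of the 13 eIF2 kinases, eIF2 and eIF2B genes, Eif2b5 was wholly above and Eif2b2, a subunit of the exchange factor that eIF2 phosphorylation blocks, was wholly below. Eif2b2 was at 72.9, 73.5 and 60.8 CPM in the dFLEx tumors and at 132.7 and 88.9 CPM in the KP tumors, for a log2 fold change of -0.68 (SE 0.53) with an edgeR adjusted p of 0.818.

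The lists of ER folding and traffic held single genes with large differences. Fkbp14, a prolyl isomerase that acts on collagen, was at 114, 95.4 and 189 CPM in the dFLEx tumors and at 23.5 and 11.9 CPM in the KP tumors, for a log2 fold change of 2.91 (SE 0.69) with an edgeR adjusted p of 0.159 and a DESeq2 adjusted p of 0.00219. Kdelr3, a receptor that returns ER proteins from the Golgi, was at 199, 106 and 110.3 CPM against 41.9 and 30.1 CPM, with a log2 fold change of 1.94 (SE 0.62), and Kdelr1 and Kdelr2 were wholly above as well. Creb3l2, a membrane-bound transcription factor of cartilage secretion, was at 119, 237 and 645 CPM against 94.5 and 29.9 CPM, which gave a log2 difference of 2.42 (SE 0.92). Sec11c, a signal peptidase subunit, went the other way at 55.2, 44.1 and 21.9 CPM against 176 and 87.7 CPM, for a log2 fold change of -1.71 (SE 0.63). The edgeR adjusted p was 0.283 for Kdelr3, 0.399 for Creb3l2 and 0.379 for Sec11c. The medians of the lists were 0.25 for the 23 other ER folding, oxidation and glycan enzymes, 0.13 for the 19 other genes of degradation and retrieval, 0.40 for the 21 genes of translocon, signal peptidase and COPII, and 0.17 for the 9 membrane-bound factors and their proteases. Markers of several other cell types were wholly above in the same tumors, 5 of 6 for chondrocytes, 3 of 6 for fibroblasts, 5 of 9 for skeletal myocytes, 3 of 8 for endothelial cells, 2 of 5 for pericytes and 3 of 6 for osteoblasts, of which 1 more was wholly below. Of all tested genes, 13.7% were wholly above and 11.7% wholly below. The skeletal myocyte markers summed to 7543 to 27020 CPM in the dFLEx tumors and to 1480 and 4257 CPM in the KP tumors, and the osteoblast markers to 294 to 749 CPM and to 2507 and 641 CPM. Nearly all of the osteoblast sum in KP 3800 and 3802 was Spp1 (2449 and 632 CPM), the marker wholly below. Ibsp, Alpl and Sp7 were wholly above, with Ibsp at 234, 349.5 and 45.4 CPM against 0.134 and 0.730 CPM, and Runx2 and Bglap overlapped. The part of these cell types in the levels of Fkbp14, Creb3l2 and Kdelr3 was not tested.

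Which tumor was highest or lowest for each gene is given as counts without a test, beside the same over all tested genes. dFLEx 170025 was the highest tumor for 14 of the 35 members (19.4% of all tested genes) and 170024 for 8 (8.16%). KP 3802 was the lowest for 16 members (25.5% of all genes) and the highest for 3 (31.6% of all genes).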

How the data were processed

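Bulk RNA-seq of 3 dFLEx and 2 KP tumors was analysed from 9 of the 10 labelled libraries. Per the labels, RNA with a RIN above 7 was divided in duplicate for rRNA-depleted, 150 bp paired-end TruSeq libraries. Per the submitters' processing notes, reads were trimmed with Trimmomatic 0.39 and aligned with STAR 2.7.10a. The authors deposited raw counts per gene from featureCounts (Subread 2.0.3), made against GRCm39 with the CIC::DUX4 construct added. Per the file headers, strand was ignored, mates were counted separately, and reads with several alignments or over several genes were left out. Counting error is thus larger than the totals imply. Library totals ran from 20503474 to 46302223, where 3 counts are 0.146 to 0.0648 CPM.

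Symbols were joined from GENCODE M39 by Ensembl identifier (56017 of 56750 features). Counts were summed by tumor and fitted with edgeR 4.0.16 (filterByExpr, TMM, glmQLFit and glmQLFTest, two-sided) over 24743 genes, with Benjamini-Hochberg adjustment at 0.05. The SE is the absolute log2 fold change over the square root of F. Alternatives used DESeq2 1.42.0 and limma 3.58.1 (R 4.3.3), other scalings and filters, and each tumor left out. The main edgeR fit and the DESeq2 fit were run on simulated counts with no trend with length or GC content. The alternatives other than DESeq2 were not run on simulated counts. The study used DESeq2 and does not state how duplicates were handled. The 35 members and all further lists were chosen with earlier results of these data known, so no p is given over a list. All members are named. Full values per tumor are given for members whose groups do not overlap and for the largest absolute log2 fold change in each role. From each further list, the gene with the largest absolute log2 fold change among those with groups that do not overlap is given in full, and other genes named there are those DESeq2 called or neighbours of these, chosen after their values were seen. The driver allele of the KP tumors is not reported here.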

Additional observations from a re-analysis of the deposited data

How the results depend on the processing

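The log2 fold changes of the 3 lower members (Asns, Slc7a11 and Phgdh) stayed below 0 under every setting run, and with upper-quartile scaling the groups of Phgdh overlapped. The count of members called was 0 in edgeR on tumor sums, where 0.182% of all genes were called. It became 1 (Slc7a11) with DESeq2 on tumor sums, where 6.07% of genes were called. With the libraries as independent samples it was 4 (Sdf2l1, Herpud1, Asns and Slc7a11), where 3344 of 19538 genes were called. The labels say that the duplicate numbers mark portions of 1 RNA, so they share only a number across tumors, and the difference between first and second libraries correlated between tumors, over 15260 genes, at a Pearson r of -0.02 to 0.1. A fit of the libraries with that number as a replicate block called 1 member (Slc7a11) and 2476 of 19538 genes, and treats duplicates as independent. Over all genes 45 calls of 24743 became 1388 of 22867 with DESeq2, 3344 of 19538 with independent libraries and 543 of 19538 with limma-voom and the tumor as a random effect. They became 80 of 15364 at a mean of at least 1 CPM, 880 of 44382 with no filter, and 199 of 24743 with the length and GC trend removed. The 14 members wholly above (13.7% of all genes) became 6 on library totals (10.0% of all genes) and 6 with the upper quartile (11.4%). They became 8 at a mean of at least 1 CPM (15.4% of all genes) and 8 with the trend removed (12.6%). The members' median became -0.04 with the trend removed. Which property of a setting moved these counts was not tested.

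Signs of small log2 fold changes turned as follows. With the trend removed they were -0.04 for Pdia4, -0.09 for Dnajb11, -0.39 for Creld2, -0.05 for Atf4, -0.01 for Ddit3, -0.06 for Ppp1r15a, -0.39 for Trib3 and -0.03 for Syvn1. On library totals they were -0.10 for Creld2 and -0.13 for Trib3, and Trib3 was -0.02 at a mean of at least 1 CPM and -0.08 with the upper quartile. With no filter they were 0.12 for Hsp90b1, 0.08 for Calr, 0.04 for Canx, 0.03 for Pdia6, 0.01 for Edem1 and 0.06 for Psat1. Hsp90b1 was 0.06 with independent libraries, 0.12 with the replicate block and 0.04 with limma-voom, and Psat1 was 0.01 in the first library of each tumor. Beside these values, the median over all tested genes was -0.18 in the main fit, -0.37 with the trend removed, -0.46 on library totals and -0.37 with no filter.

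Leaving out each tumor in turn, with a lone KP tumor assumed to vary like the others, gave 0 to 414 genes called, 12 to 22 members wholly above (15.7% to 31.9% of all genes), 3 to 8 wholly below (14.3% to 41.9% of all genes) and medians of 0.18 to 0.94. The log2 fold changes that turned ran from -0.49 to 0.90 for Hsp90b1, -0.26 to 0.18 for Calr, -0.41 to 0.35 for Canx, -0.42 to 0.64 for Pdia6, -0.18 to 1.26 for Dnajb11, -0.76 to 0.90 for Hyou1, -1.20 to 1.47 for Ern1, -1.47 to 1.22 for Atf6, -0.12 to 1.74 for Eif2ak3, -0.47 to 1.15 for Sel1l, -0.20 to 1.32 for Syvn1, -0.49 to 0.22 for Edem1 and -0.50 to 0.95 for Psat1. With 3 tumors against 2, the SE of the members' log2 fold changes was 0.50 to 1.08, which limits the differences that could be told from the spread between tumors.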

Other observations

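Stress genes outside the endoplasmic reticulum were read as a contrast, from lists of 11 cytosolic heat shock genes and 9 mitochondrial chaperones and proteases. No gene of either list passed an adjusted p of 0.05 in edgeR or in DESeq2, where 0.182% and 6.07% of all tested genes did. In edgeR, 2 of the heat shock genes and 0 of the mitochondrial genes had an unadjusted p under 0.05, against 10.6% of all tested genes. Hspa1b, an inducible cytosolic HSP70, was at 2.09, 7.39 and 7.04 CPM in dFLEx 170019, 170024 and 170025 and at 37.9 and 9.70 CPM in KP 3800 and 3802, a log2 fold change of -2.11 (SE 0.82) with an edgeR adjusted p of 0.411. Like Hspa1b, Hsp90aa1, the inducible cytosolic HSP90, was wholly below, at 537, 505 and 333 CPM against 909.6 and 1579 CPM. Its constitutive relative Hsp90ab1 was wholly above at 3813, 3882 and 4008 CPM against 3299 and 2274 CPM and had overlapping groups on library totals. Of all tested genes, 11.7% were wholly below and 13.7% wholly above. The medians of the log2 fold changes were -0.11 for the heat shock genes and -0.18 for the mitochondrial genes, beside -0.18 over all tested genes, and no mitochondrial gene had groups that did not overlap.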
